A study of Homo sapiens with 12 samples.

Results

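The second of the siRNAs that the study used against CITED1, called #3 siCITED1, was set against the negative control siRNA (siNEG) in HT144, an established human melanoma cell line. The comparison took the 8 arrays whose titles carry these names, 4 of #3 siCITED1 and 4 of siNEG, out of 12 in the series. The other 4 arrays carried #1 siCITED1 and were used for the spread between arrays and for a direct test between the siRNAs. Cells of all groups were transfected with Lipofectamine2000 and lysed 48 h later, and all wells came from the same day and passage, so the p-values speak for wells of 1 day and not for separate experiments. RNA was hybridised to Illumina HT-12 arrays, on which each transcript is read by short probes. The sources used here give no sequence for the siRNAs. A transfected siRNA guides the silencing complex to matching mRNAs and can also act on other transcripts through partial matches, so for a gene that moved with 1 siRNA only, loss of CITED1 and the siRNA itself cannot be told apart.

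CITED1 has no known DNA-binding domain of its own. It acts as a co-regulator of transcription, recruits the histone acetyltransferases p300 and CBP and is brought to genes by other factors. In the melanocyte lineage it has been linked to MITF, the transcription factor that drives pigment genes. The values of the arrays are log2 values centred on each probe's mean over the 12 arrays and on each array. They hold differences between arrays and no absolute level, so the presence of the melanocyte markers in these cells could not be checked, nor could bright probes be told from dim ones.

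CITED1 was read by 1 probe, shown here because it is the check of the labels (50 bases, gene on chromosome X, sequence from the study's supplementary tables):
CITED1: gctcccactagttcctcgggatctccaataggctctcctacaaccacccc
With siNEG this probe read 0.44, 0.35, 0.54 and 0.53 on the 4 arrays, and with #3 it read -0.20, -0.33, -0.28 and -0.34. All #3 arrays lay below all siNEG arrays. CITED1 mRNA fell by 0.75 ± 0.06 log2 (SE, 4 arrays against 4), which is 1.68-fold, with a limma adjusted p = 6.47e-08 and a two-sided exact permutation p = 0.0286, the smallest such groups allow. Ranked by gene, the target itself stood in place 17 among the falls.

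Over all probes the response was broad in number and small in size. Of 47315 probes 1201 (2.54%) passed an adjusted p of 0.05 in limma, 635 higher (1.34%) and 566 lower (1.2%), and 5221 had an unadjusted p under 0.05. The probes that passed were higher by 0.35 log2 in the median (1.27-fold) or lower by a median of 1.28-fold, and the smallest differences that passed were 1.17-fold in each direction. A difference of at least 1.5 fold was reached by 121 probes (0.256%), 50 higher and 71 lower, and one of at least 2 fold by 2 probes higher and 4 lower. The percentiles 5 and 95 over all probes were -0.16 and 0.16. The median SE of a difference was 0.07 log2 and the median 95% interval reached 0.14 to either side of a probe's own difference. Of the 46114 probes that did not pass, 2 differed by at least 1.5 fold.

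**Figure D1:**
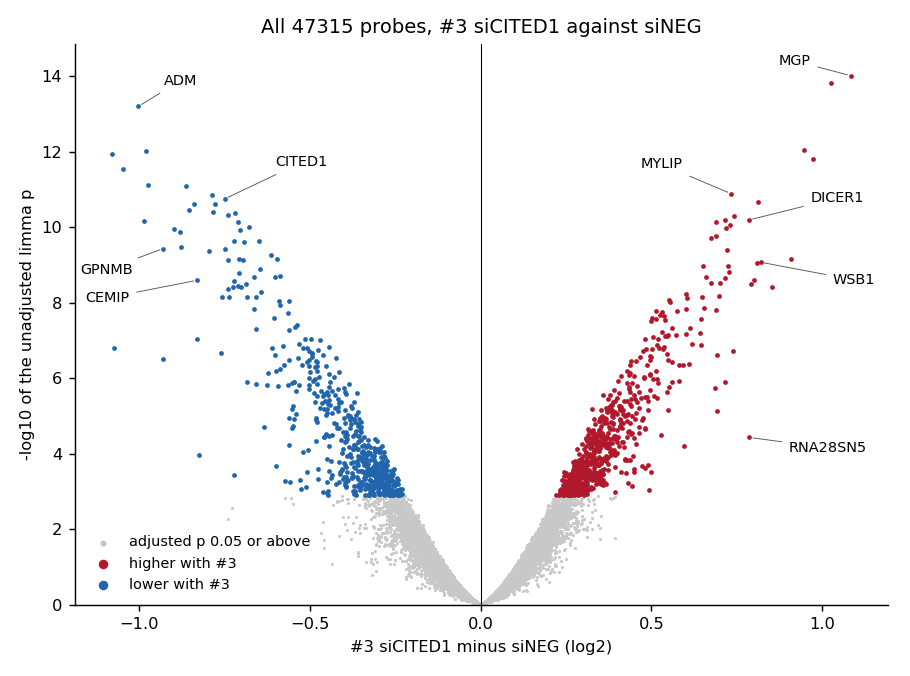
Each point is 1 of the 47315 probes, with the #3 minus siNEG difference (log2) on the x axis and -log10 of the unadjusted limma p on the y axis; red and blue points passed an adjusted p of 0.05. The 635 higher and 566 lower probes form arms of like reach, up to 1.08 (MGP) and down to -1.08, CITED1 lies inside the lower arm at -0.75, and RNA28SN5 stands out for a low -log10 p at a difference of 0.79.

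The groups lay apart without overlap in 3078 probes (6.51%), among them 583 of the 635 that passed as higher and 478 of the 566 that passed as lower. Probes with 1 gene symbol passed more often (3.46%) than probes without one (0.93%). With the probes of each gene averaged, 871 of 20045 genes passed (4.35%), 489 higher (2.44%) and 382 lower (1.91%), and the median gene was at 0.00. Protein-coding genes passed in 4.76%, against 1.25% of long noncoding RNA genes, 0.178% of microRNA genes and 1.08% of small nucleolar RNA genes. By chromosome the share that passed ran from 2.09% to 6.16%, and the chromosome medians lay between -0.01 and 0.01.

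Among the 8 arrays the groups separated on the leading principal component (25.9% of the variance), where siNEG lay between -15.6 and -7.5 and #3 between 8.6 and 15.5. siNEG replicate 1 stood apart on the next component (17.9%), with a score of 24.7 against scores from -8.5 to 3.2 on the other 7 arrays. Without that array 1392 probes passed in place of 1201, and without #3 replicate 4 860 did.

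The 5 largest rises were those of MGP (1.08 ± 0.07 log2, SE), LBH (0.97 ± 0.07), SLC2A3 (0.95 ± 0.07), PLSCR4 (0.91 ± 0.09) and SLC35F1 (0.85 ± 0.10). At its other probes LBH read 0.37 and 0.14, and the latter did not pass. The 15 next in order, down to 0.72, included a gene of sterol synthesis, membrane receptors, guidance and adhesion proteins and regulators of chromatin. They were picked for size among genes whose 4 #3 arrays all lay above the 4 siNEG arrays, so the lack of overlap is not a finding for them. Over the 20 rises the adjusted p was at most 0.0039.

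The rises are taken here by role, in groups made after their values were seen. HMGCS1, which makes HMG-CoA in the cytosol for the synthesis of cholesterol, read -0.68, -0.35, -0.28 and -0.54 with siNEG and 0.41, 0.47, 0.35 and 0.16 with #3. It was 1.75-fold higher (0.81 ± 0.08, limma adjusted p = 8.65e-07). INSIG1, a protein of the endoplasmic reticulum that holds back the activation of sterol regulatory element binding proteins, read -0.71, -0.15, -0.16 and -0.21 with siNEG, where replicate 1 lay far below the rest, and 0.28, 0.63, 0.55 and 0.25 with #3. It rose by 0.74 ± 0.10 (adjusted p = 6.32e-05), and its other probe rose by 0.38. MYLIP, a ubiquitin ligase that takes the LDL receptor to degradation, rose by 0.73 ± 0.06 with the 4 #3 arrays between 0.28 and 0.37. SQLE, the squalene epoxidase, is not among the 20 rises but was higher at both of its probes (0.72 ± 0.11 and 0.48 ± 0.09).

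Receptors and guidance proteins formed another set by role. TGFBR2, the type II receptor of TGF-beta, read -0.08, -0.24, -0.21 and -0.34 with siNEG and 0.51, 0.55, 0.44 and 0.59 with #3. It was 1.67-fold higher (0.74 ± 0.07, limma adjusted p = 1.14e-07), and of its other probes one read 0.72 and one 0.17. SEMA6A, a transmembrane semaphorin, read -0.28, -0.29, -0.33 and -0.24 with siNEG and 0.50, 0.44, 0.49 and 0.30 with #3, a rise of 0.72 ± 0.07. The siNEG arrays of SEMA6A lay close together (SD of 0.04). GPR37, an orphan receptor known from the nervous system, rose by 0.80 ± 0.09, and PCDH7, a protocadherin, by 0.72 ± 0.07 at a probe whose companions read 0.36, 0.12 and -0.06. ADAM19, a membrane metalloprotease, rose by 0.79 ± 0.09 at 1 probe, with 0.00 at the other. FGL2, a fibrinogen-like protein, rose by 0.72 ± 0.08.

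Genes that act on RNA, chromatin and protein turnover made up most of the remainder. DICER1, the nuclease that cuts microRNA precursors and long double-stranded RNA, read -0.04, -0.22, -0.28 and -0.30 with siNEG and 0.67, 0.39, 0.67 and 0.56 with #3. That probe rose by 0.79 ± 0.07 (1.72-fold, limma adjusted p = 1.32e-07), another read 0.67, and the last pair read -0.06 and -0.08. DICER1 thus split into probes that rose and probes near 0, and the level of the gene as a whole is uncertain. WSB1, the recognition subunit of a ubiquitin ligase, rose at both probes, by 0.82 ± 0.08 and 0.81 ± 0.07. JARID2, a partner of Polycomb repressive complex 2, rose by 0.73 ± 0.08 and VGLL4, a cofactor that opposes YAP on TEAD factors, by 0.73 ± 0.07. TMEM64, a membrane protein, rose by 0.72 ± 0.08 at 1 probe, with companions at 0.52 and 0.06, the latter not past the threshold. The probe annotated to RNA28SN5, a gene of the 28S ribosomal RNA, was the least even of the rises. It read 0.01, 0.00, 0.32 and 1.05 on the #3 arrays (SD of 0.49) against -0.65, -0.69, -0.26 and -0.16 with siNEG, and its call (0.79 ± 0.16, adjusted p = 0.0039) was lost with robust variances (adjusted p = 0.162). Ribosomal RNA genes have many near-identical copies, so this row cannot be read as 1 gene.

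**Figure D2:**
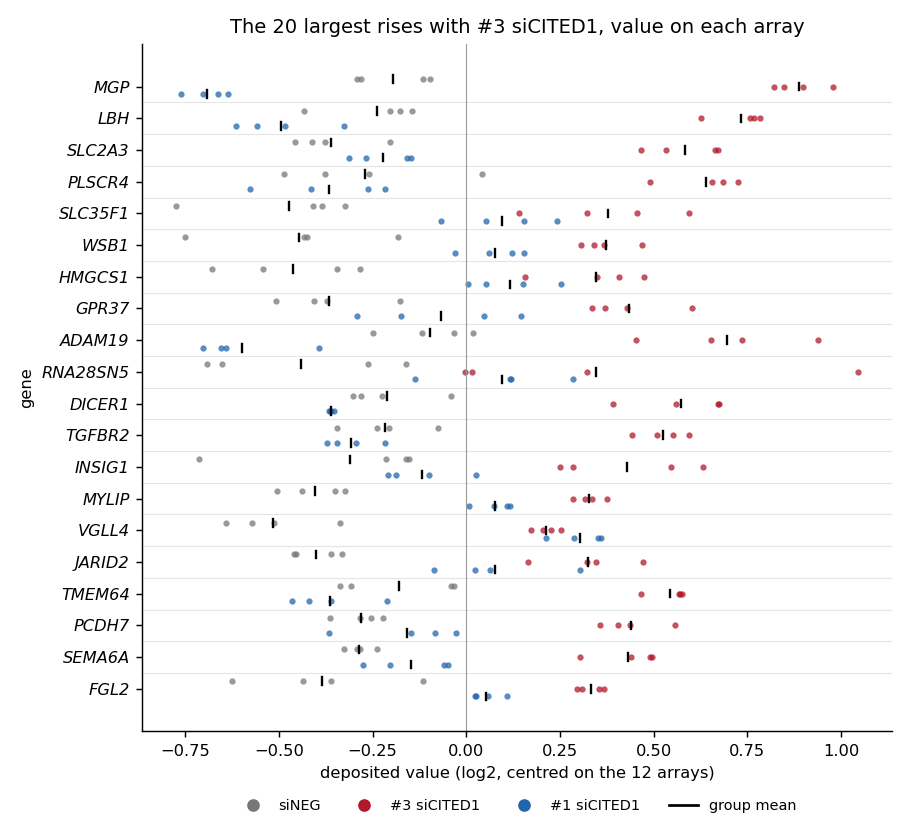
Value on each array (log2, centred on the 12 arrays, x axis) for the 20 genes with the largest rises, in order of size; points are arrays, black bars group means, with #1 siCITED1 for comparison. The #3 points lie to the right of the siNEG points in every row, as the choice requires, while the #1 points lie beyond siNEG on the same side for HMGCS1 and VGLL4 and on the other side for MGP and ADAM19.

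The 5 largest falls were those of DCTD (-1.08 ± 0.08 log2, SE), POLR3G (-1.07 ± 0.15), RAB2B (-1.05 ± 0.08), ADM (-1.001 ± 0.07) and HNRNPH3 (-0.99 ± 0.09). The POLR3G probe was uneven with siNEG, at -0.40, 0.69, 0.57 and 0.38. Its companions read -0.28 and -0.20, and the latter did not pass. Next came GPNMB, SLC26A2, FAM3C, DKK1, HMGN1, ACSL4, CEMIP, NRP2, CHMP4A, SKA2, ATP1B3, CITED1, NUP88, DBI and PRPSAP1, down to a fall of 0.74. These were chosen in the same way, and the adjusted p was at most 6.98e-05 over the 20 falls.

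Secreted and surface proteins stood first among these. GPNMB, a glycoprotein of melanosomes and the cell surface, read -0.13, 0.38, 0.06 and 0.09 with siNEG and -0.92, -0.54, -0.89 and -0.96 with #3. It was 1.90-fold lower (-0.93 ± 0.09, limma adjusted p = 4.47e-07), and the remaining probe gave the same difference of -0.93. DKK1, a secreted inhibitor of Wnt signalling, read -0.14, 0.12, 0.26 and 0.22 with siNEG and -0.84, -0.93, -0.69 and -0.57 with #3. It fell by 0.88 ± 0.09, and by 0.54 at its other probe. CEMIP, which takes part in the breakdown of hyaluronan, read 0.19, 0.12, -0.33 and 0.02 with siNEG and -0.82, -0.61, -0.92 and -0.97 with #3, a fall of 0.83 ± 0.09. In these 3 genes the siNEG arrays were uneven (SDs of 0.21, 0.18 and 0.23), with the #3 arrays below the whole of their range.

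FAM3C, a secreted cytokine-like protein, read 0.59, 0.80, 0.98 and 1.08 with siNEG and 0.09, -0.14, 0.01 and -0.03 with #3. It fell by 0.88 ± 0.08 (1.84-fold) at one probe and by 0.86 ± 0.07 at the other. These probes share 48 of their 50 bases, shifted by 2, so the pair is close to a repeat of 1 measurement. NRP2, a co-receptor for semaphorins and VEGF, read 0.26, 0.28, 0.26 and 0.31 with siNEG and -0.35, -0.55, -0.57 and -0.55 with #3. That probe fell by 0.78 ± 0.07, while the other 3 probes annotated to NRP2 read -0.05, 0.02 and 0.16, so the fall belongs to the one probe. SLC26A2, a sulfate transporter needed for sulfated proteoglycans, fell by 0.90 ± 0.08. ATP1B3, a subunit of the sodium pump, fell by 0.76 ± 0.09 at 1 probe and read 0.02 at the other.

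The other falls were of proteins inside the cell. HMGN1, a nucleosome-binding protein, read 0.18, 0.42, 0.27 and 0.28 with siNEG and -0.57, -0.57, -0.57 and -0.49 with #3, and fell by 0.84 ± 0.07 and 0.75 ± 0.07 at its probes. ACSL4, which joins arachidonic acid to coenzyme A, fell by 0.83 ± 0.11 at 1 probe, with siNEG between 0.05 and 0.68, and the other 3 probes read 0.05, -0.01 and 0.08. DBI, the acyl-CoA binding protein, fell by 0.74 ± 0.08 with a companion at -0.65. CHMP4A, a subunit of the ESCRT-III membrane scission complex, fell by 0.78 ± 0.07, and NUP88, of the nuclear pore, by 0.74 ± 0.08. SKA2, which helps hold microtubules to kinetochores, fell by 0.76 ± 0.11 with a companion at -0.60 and a further probe at 0.01. PRPSAP1, a partner of phosphoribosyl pyrophosphate synthetase, fell by 0.74 ± 0.09.

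**Figure D3:**
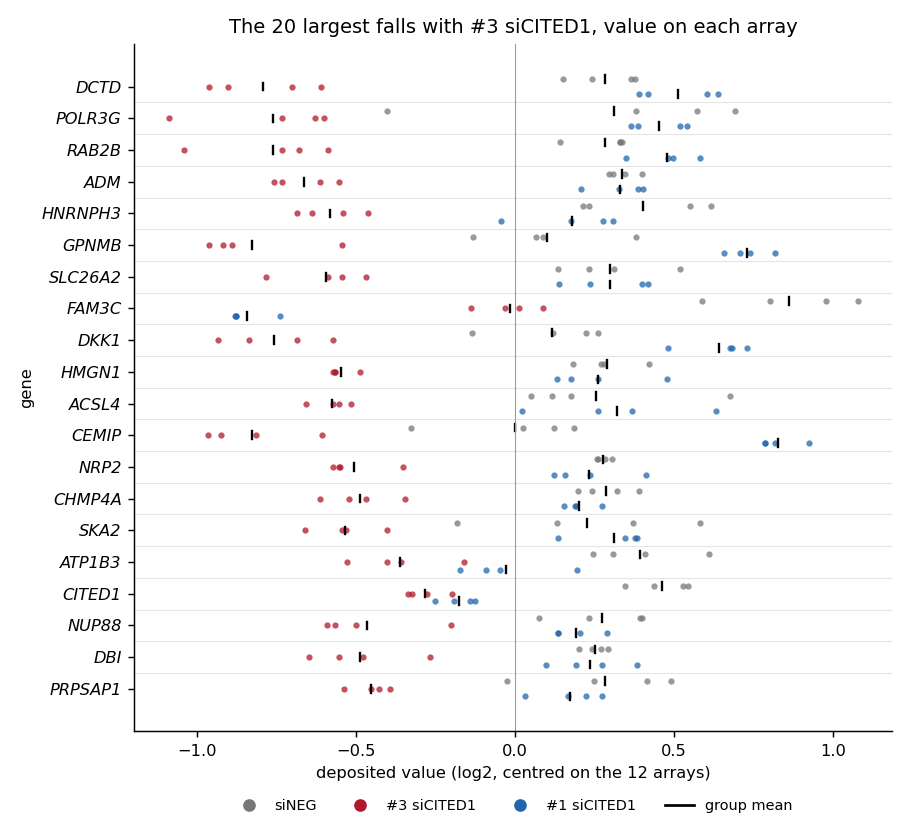
Value on each array (log2, centred on the 12 arrays, x axis) for the 20 genes with the largest falls, in order of size; points are arrays, black bars group means, with #1 siCITED1 for comparison. The #3 points lie to the left of siNEG in every row, as the choice requires, and the #1 points lie among those of siNEG for ADM, SLC26A2, HMGN1 and DBI, to their right for GPNMB, DKK1 and CEMIP and far to their left for FAM3C.

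Genes with several probes gave a measure of how far a call rests on 1 probe. Of 6673 such genes 446 had at least 1 probe that passed. All probes passed as higher in 34 genes and as lower in 32, no gene had probes that passed in opposite directions, and in 380 genes the remaining probes did not pass. By the median over their probes, the largest of those with all probes higher were MGP, WSB1, SQLE, PI15, INSIG1 and FXYD3. PI15, a secreted trypsin inhibitor, gave 0.69 ± 0.11 and 0.45 ± 0.10, and FXYD3, a small regulator of the sodium pump, gave 0.61 ± 0.08, 0.55 ± 0.07 and 0.30 ± 0.08. The largest with all probes lower were HNRNPH3, DCTD, GPNMB, FAM3C, HMGN1 and DKK1. HNRNPH3, a splicing protein, gave -0.99, -0.97 and -0.31, and DCTD, the deaminase that turns dCMP into dUMP, gave -1.08 and -0.78.

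The direct test of #3 against #1 asked which parts of this response differed between the siRNAs. Of all probes 3528 (7.46%) passed in that test, 1807 higher with #3 (3.82%) and 1721 lower (3.64%), which is more than passed for #3 against siNEG. For #1 against siNEG 2858 probes (6.04%) passed. The contrasts with siNEG share the siNEG arrays and are given side by side only. Of the 635 probes that rose with #3 against siNEG, 296 were also higher with #3 than with #1, 33 were lower and 306 did not pass. Of the 566 that fell, 324 were also lower than with #1, 49 were higher and 193 did not pass. The median of the probes that rose was 0.35 with #3 and 0.14 with #1, and that of the probes that fell was -0.36 and -0.07. The #3 arrays that chose these probes also enter the direct test. An excess in the direction of the choice and smaller medians with #1 are thus in part built in.

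The named rises and falls were chosen on the same #3 arrays too, so their counts in the direct test are no finding. Of the 20 named rises 16 were higher with #3 than with #1 in the direct test, and the 4 that did not pass were SLC35F1, HMGCS1, RNA28SN5 and VGLL4. For HMGCS1 the difference was 0.23 (95% interval from 0.06 to 0.40, adjusted p = 0.112), and for VGLL4 it was -0.09 (from -0.23 to 0.05, adjusted p = 0.62). Among the genes higher with #3 in both tests was DCP2, the mRNA decapping enzyme. It read -0.02, 0.30, 0.10 and 0.14 with siNEG and 0.69, 0.79, 0.75 and 0.70 with #3, and averaged -0.86 ± 0.17 (SD, n = 4) with #1. DCP2 thus rose by 0.60 ± 0.08 with #3 and fell by 0.998 ± 0.08 with #1, and the siRNAs differed by 1.60 ± 0.08 (adjusted p = 1.51e-12). MGP (1.58 ± 0.07, and 1.62 at its other probe), ADAM19 (1.29 ± 0.09) and LBH (1.23 ± 0.07) were also higher with #3 than with #1, and all 3 were lower than siNEG with #1 (-0.49, -0.50 and -0.26). With #1 12 of the 20 rises passed against siNEG, 9 of them as higher and these 3 as lower. The remaining 8 did not pass, at differences from -0.18 to 0.19.

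Of the 20 named falls 18 were lower with #3 than with #1, 1 was higher and 1, CITED1 itself, did not pass (-0.11 ± 0.06, adjusted p = 0.472). The gene that was higher was FAM3C, which fell by 0.88 with #3 and by 1.70 ± 0.08 with #1. CEMIP, GPNMB, DKK1 and NR4A2 led the differences in the same direction, at -1.66 ± 0.09, -1.56 ± 0.09, -1.40 ± 0.09 and -1.35 ± 0.09. The first 3 rose with #1, by 0.83, 0.63 and 0.52. NR4A2, an orphan nuclear receptor, read -0.33, -0.37, -0.14 and 0.01 with siNEG and -0.55, -0.39, -0.57 and -0.76 with #3. Its fall with #3 was small (-0.36 ± 0.09, limma adjusted p = 0.0224) and did not pass without siNEG replicate 3 or 4 or #3 replicate 1, 3 or 4 (adjusted p from 0.0543 to 0.117), and it rose by 0.99 ± 0.09 with #1. With #1 14 of the 20 falls did not pass against siNEG, at differences from -0.22 to 0.23.

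**Figure D4:**
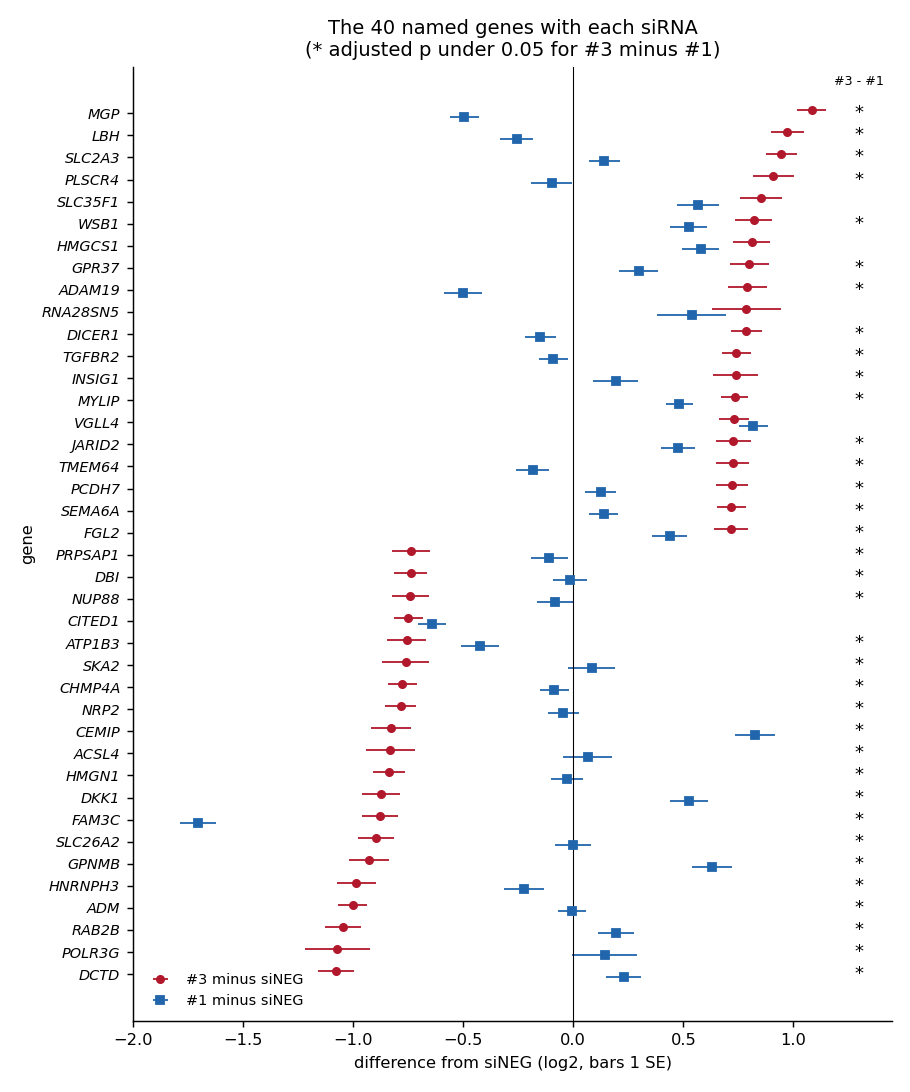
Difference from siNEG (log2, x axis, bars 1 SE) of the 20 rises and 20 falls with #3 (circles) and with #1 (squares), which share the siNEG arrays; stars mark an adjusted p under 0.05 in the direct test of #3 against #1. Stars stand beside 16 of the 20 rises and 19 of the 20 falls, and the circles and squares lie closest for CITED1 and VGLL4. The genes were chosen on the #3 arrays that the direct test also uses.

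Groups of genes by function were counted on 1 value per gene, with 78 lists of which 9 held no gene that passed. Their medians lay between -0.11 and 0.04. Beside them stands the share of all genes that passed, 2.44% higher and 1.91% lower. Since no test of a list was made, the counts describe these lists and do not set one apart from other genes. The lists with 4 or more genes that passed are described below, with fatty acid oxidation beside the other lipid lists.

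Most interferon-stimulated genes lay below 0. Of 40 measured genes 0 rose and 5 fell, 35 lay below 0 and 5 above, and the median was -0.08. The mean over the list lay between -0.01 and 0.02 on the siNEG arrays and between -0.11 and -0.10 on the #3 arrays, so the groups did not overlap. That does not set this list apart, since the means of several other lists did not overlap either, while those of the rest did. Autophagy genes ran from -0.04 to -0.02 with siNEG and from 0.01 to 0.02 with #3. Tubulins ran from 0.05 to 0.10 and from -0.02 to 0.04, and housekeeping genes from 0.02 to 0.07 and from -0.09 to -0.001. The members that fell furthest were ISG20, an exonuclease that degrades viral RNA (-0.73 ± 0.08 log2, SE, limma adjusted p = 4.01e-05), and SAMD9, an antiviral factor (-0.40 ± 0.11, adjusted p = 0.0397). The call of SAMD9 was lost without any of siNEG replicates 2 to 4 or #3 replicates 1 and 4. The 13 housekeeping genes also lay low, with 12 below 0 and a median of -0.11. HPRT1, which salvages purine bases, was the one of them that fell (-0.28 ± 0.05, adjusted p = 0.00431).

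Lists of lipid metabolism did not all lean the same way. Of 35 sphingolipid genes 4 rose and 0 fell, with a median of 0.02. UGCG, which makes glucosylceramide, rose by 0.51 ± 0.09 and CERT1, which carries ceramide from the endoplasmic reticulum to the Golgi, by 0.25 ± 0.05. Of 54 genes of lipid droplets and phospholipid synthesis 3 rose and 1 fell. FABP7, a fatty acid binding protein, rose by 0.55 ± 0.08, less than with #1 (1.28), and PLIN2, which coats lipid droplets, fell by 0.41 ± 0.07. Of 51 genes of fatty acid oxidation and peroxisomes 0 rose and 2 fell, ACOX2, a peroxisomal oxidase (-0.45 ± 0.06), and HADHB, of the mitochondrial trifunctional protein (-0.25 ± 0.05). Outside lipid metabolism, among 40 genes of the TCA cycle and pyruvate metabolism 3 rose and 1 fell. ME1, the cytosolic malic enzyme, rose by 0.50 ± 0.06 and IDH1, the cytosolic isocitrate dehydrogenase, by 0.25 ± 0.06 (adjusted p = 0.0299). Both of these make NADPH in the cytosol.

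In nucleotide metabolism 2 of 31 genes of the pentose phosphate pathway and nucleotide salvage rose and 3 fell, among them DCTD and HPRT1. Of 393 symbols that begin as those of solute carriers 12 rose and 7 fell (the falls include the antisense gene SLCO4A1-AS1 and the transcription factor gene SLC2A4RG, which are not carriers). SLC2A3, the glucose transporter GLUT3, led the rises and SLC26A2 the falls. Of 49 amino acid transporters 3 rose and 1 fell, with SLC38A11 at 0.50 ± 0.05 and SLC38A6 at 0.45 ± 0.07, both members of the sodium-coupled neutral amino acid transporter family.

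Lists of membrane traffic, Golgi glycosyltransferases and mitochondrial import each held more calls upward than downward, as all genes did (2.44% higher, 1.91% lower). The share higher was 3.12% for the secretory pathway, 6.45% for RAB GTPases, 4.6% for Golgi glycosyltransferases and 3.45% for mitochondrial import. Of 128 genes of COPI, COPII and the secretory pathway 4 rose and 0 fell. CALU, the calcium-binding protein calumenin, rose by 0.65 ± 0.08, and SRPRA, a subunit of the receptor for the signal recognition particle, by 0.42 ± 0.07. Of 62 RAB GTPases 4 rose and 1 fell. RAB32, which directs cargo to melanosomes, rose by 0.49 ± 0.07, while RAB2B, of the Golgi, was the one that fell. Of 87 Golgi glycosyltransferases 4 rose and 1 fell: GALNT11, which starts O-linked glycans, rose by 0.40 ± 0.06 and B4GALT5, which makes lactosylceramide, fell by 0.42 ± 0.05. Of 87 genes of mitochondrial import, dynamics and carriers 3 rose and 1 fell, with TOMM20, a receptor of the outer membrane, at 0.51 ± 0.07 and SLC25A39, a carrier of glutathione, at -0.35 ± 0.07.

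Of 31 semaphorins and plexins 3 rose and 2 fell. SEMA3C, a secreted semaphorin, rose by 0.39 ± 0.10 beside SEMA6A, a call that did not pass in the fit to the 8 arrays alone (adjusted p = 0.0559), and its #3 replicate 1 read -0.31 while the other #3 arrays read from 0.21 to 0.23. Of 33 genes of plasminogen activation and coagulation 3 rose and 3 fell. PLAT, the tissue plasminogen activator, rose by 0.45 ± 0.09, and TFPI2, a Kunitz-type protease inhibitor of the matrix, fell by 0.50 ± 0.08.

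Of 20 genes of the insulin-like growth factor system 1 rose and 3 fell. IGF2BP3, which binds IGF2 mRNA, fell by 0.58 ± 0.08 and IGFBP6, which binds IGF2, by 0.47 ± 0.07. Of 99 orphan and adhesion receptors coupled to G proteins 3 rose and 1 fell, GPR37 and ADGRL4 (-0.27 ± 0.05) having moved furthest.

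Among regulators of transcription the zinc finger genes seldom passed. Of 493 zinc finger genes named ZNF 7 rose and 2 fell (1.83% in all, against 4.35% of all genes), with ZNF704 at 0.38 ± 0.05 and ZNF697 at -0.40 ± 0.09. Of 51 forkhead factors 3 rose and 1 fell. FOXO1, which insulin signalling holds out of the nucleus, rose by 0.35 ± 0.06 and FOXF2 by 0.28 ± 0.05. Of 73 histone demethylases and methyltransferases and their partners 3 rose and 1 fell. KDM3A, a demethylase of histone H3, rose by 0.31 ± 0.07, and SUZ12, a subunit of Polycomb repressive complex 2, fell by 0.32 ± 0.08 (adjusted p = 0.0324).

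Of 125 splicing factors 1 rose and 3 fell, with LSM7, of the U6 particle, at 0.35 ± 0.07 and HNRNPH3 at -0.76 ± 0.07 on the mean of its probes. Of 80 mitochondrial ribosomal proteins 1 rose, MRPS18A (0.43 ± 0.08), and 3 fell, MRPS17 furthest (-0.32 ± 0.07). Of 154 ubiquitin ligases of the TRIM and RNF families 6 rose and 0 fell. TRIM63, a ligase known from the breakdown of muscle proteins, rose by 0.44 ± 0.10 and RNF150 by 0.39 ± 0.05. Of 136 F-box and cullin ligase subunits 4 rose and 3 fell, with FBXL12 at 0.53 ± 0.11 and DCAF10 at 0.37 ± 0.07.

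Noncoding genes seldom passed. Of 317 small nucleolar and small Cajal body RNAs, host genes included, 0 rose and 4 fell. SNHG9, a host gene, fell by 0.45 ± 0.08 and SNORA61, which guides pseudouridylation, by 0.39 ± 0.09. Of 474 antisense and intergenic RNAs 4 rose and 1 fell, with LINC00997 at 0.35 ± 0.08 and ATP2B1-AS1 at 0.32 ± 0.06. Whether the array's probes tell an antisense RNA from its partner was not tested.

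**Figure D5:**
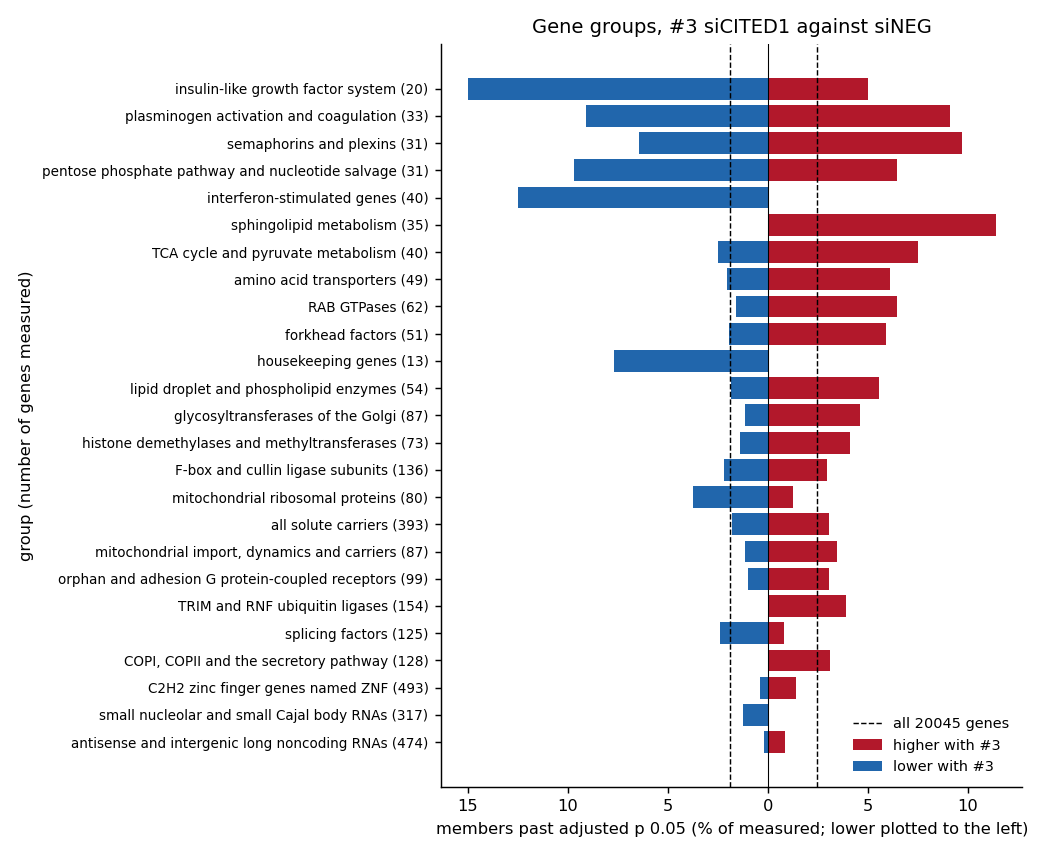
Share of measured genes (%, x axis) that passed an adjusted p of 0.05 as higher (red, to the right) or lower (blue, to the left) with #3 in each group with 4 or more such genes and in the housekeeping genes, with the number of genes measured in brackets; dashed lines give the shares over all 20045 genes, 2.44% and 1.91%. Interferon-stimulated, small nucleolar and housekeeping genes have bars only on the lower side, and sphingolipid, secretory pathway and TRIM and RNF genes only on the higher side.

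Of the cell type markers, 3 of 7 for melanocytes rose, MLANA (0.66 ± 0.07), TYR (0.27 ± 0.07) and MITF (0.24 ± 0.04), and 0 fell, against 2.44% of all genes higher. The remaining 4 did not pass, with TYRP1 at 0.24, SOX10 at 0.07, S100B at -0.02 and PMEL, a melanosome protein, at -0.20. Of 6 fibroblast markers 2 rose, the matrix genes LUM (0.54 ± 0.08) and COL1A2 (0.45 ± 0.06), while COL1A1 read -0.06 and DCN -0.02. The means of the fibroblast list ran from -0.10 to -0.07 with siNEG and from 0.05 to 0.10 with #3, though its median difference was 0.01. Those of the melanocyte list were also apart (-0.31 to -0.19 and -0.12 to 0.01). The endothelial means were apart too, by little (-0.10 to -0.002 and -0.0007 to 0.09), and those of the epithelial and immune lists overlapped. None of 6 epithelial, 4 immune and 4 endothelial markers passed. All groups were of the single cell line HT144, and a part of other cells in these values was not tested.

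Promoters were looked at as RefSeq gives them (GRCh38.p14, 250 bases before to 50 after the start), for 15033 genes, of which 398 rose and 317 fell. The M-box core TCATGTG, to which MITF binds in pigment genes, was found on either strand in 2.76% of promoters of genes that rose, 1.26% of those that fell and 2.24% of all. The GC box GGGCGG was found in 69.6% and 69.1% against 58.6% of all, and the median GC content was 67.3% and 64.7% against 62.7%. Genes that rose and genes that fell thus both had promoters richer in GC than the rest. The rest were genes of the array with no filter on level, and a part of expression level in this difference was not tested. Other motifs were scanned as well. Among them the cyclic AMP response element was found in 4.27% and 3.79% (17 and 12 promoters) against 2.65% of all. The TATA box was found in 7.29% and 8.2% against 9.53%, and the sterol regulatory element in 1.01% and 0.631% against 1.14%. Shares were 5.28% and 8.2% against 5.85% for the AP-1 site and 2.51% and 3.79% against 2.16% for the E2F site. For the hypoxia response element core they were 8.04% and 10.1% against 7.6%.

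The promoters of TYR and GPNMB are shown because both genes make proteins of melanosomes, both windows hold the M-box core, and the genes moved in opposite directions with #3. The 250 bases before each start are given 5′ to 3′ on the strand of the gene, with TCATGTG or its reverse complement in capitals.
TYR, chr11:89177625-89177874, plus strand: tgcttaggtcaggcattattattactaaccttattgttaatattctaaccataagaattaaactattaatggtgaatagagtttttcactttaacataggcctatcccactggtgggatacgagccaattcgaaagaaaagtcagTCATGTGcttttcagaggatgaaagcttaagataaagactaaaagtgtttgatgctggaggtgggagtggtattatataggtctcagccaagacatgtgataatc
GPNMB, chr7:23246525-23246774, plus strand: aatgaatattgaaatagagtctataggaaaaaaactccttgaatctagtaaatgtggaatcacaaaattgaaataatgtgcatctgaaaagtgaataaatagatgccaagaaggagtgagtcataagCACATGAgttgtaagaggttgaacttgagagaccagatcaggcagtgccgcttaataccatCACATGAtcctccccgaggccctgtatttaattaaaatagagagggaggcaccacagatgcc
TYR holds 1 match, which begins 105 bases before the start, and GPNMB holds 2, of the reverse complement, the nearer of them 62 bases before it. A match of letters is a description and no evidence of binding.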

How the data were processed

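The deposited table held 1 value for each of 47315 probes on 12 arrays. Per the labels and the methods, the authors quantile normalized the intensities, took log2 values and centred these log2 values on genes and samples. Values were used as deposited, with no filter. The array's annotation gave 1 symbol for 30105 probes (30066 found by Entrez ID in a current gene table), several for 8 and none for 17202. limma 3.58.1 (lmFit, eBayes; R 4.3.3) fitted linear models with 3 groups, two-sided, with Benjamini-Hochberg adjustment over all probes or genes and a threshold of 0.05. The study had pooled the siRNAs and used SAM, which was not run here. That the base is 2 is taken from the methods and cannot be read from centred values. Alternatives were the 8 arrays alone, a replicate block, robust variances, array weights, other scaling or centring, a filter on SD or on symbols, another rule for genes with several probes, and leaving out each array. Errors are SEs of differences and SDs of group values. The fits were tested on simulated data. Genes were named by rank of the difference among probes that passed without overlap of the arrays (20 each way), by agreement of all probes (6 each way), by the direct test against #1 (4 each way) and as the furthest members of each list. Some gene lists are not reported here. Members, lists and tests were chosen with earlier results of these data known.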

Additional observations from a re-analysis of the deposited data

Results flagged for a closer look

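Of the 42 genes named by rank or by the direct test against #1, 37 differed between the siRNAs in that test, against 7.46% of all probes. They were chosen for extreme #3 values or for passing this same test, so the count is not a finding. The test was made with limma, adjusted over all probes, and the differences are #3 minus #1 in log2. Higher with #3 than with #1 were DCP2 (1.60), MGP (1.58), ADAM19 (1.29), LBH (1.23), PLSCR4 (1.01), DICER1 (0.93), TMEM64 (0.91), TGFBR2 (0.83), FAM3C (0.83) and SLC2A3 (0.81). By smaller differences the same held for PCDH7 (0.60), SEMA6A (0.58), INSIG1 (0.55), GPR37 (0.50), WSB1 (0.29), FGL2 (0.28), MYLIP (0.25) and JARID2 (0.25). Lower with #3 were CEMIP (-1.66), GPNMB (-1.56), DKK1 (-1.40), NR4A2 (-1.35), DCTD (-1.31), RAB2B (-1.24), POLR3G (-1.22) and ADM (-0.996). Below these in size stood ACSL4 (-0.90), SLC26A2 (-0.89), SKA2 (-0.85), HMGN1 (-0.81), HNRNPH3 (-0.76), NRP2 (-0.74), DBI (-0.72), CHMP4A (-0.69), NUP88 (-0.66), PRPSAP1 (-0.63) and ATP1B3 (-0.33). SQLE, PI15 and FXYD3, named for agreement of their probes, are outside this count. FXYD3 was higher with #3 than with #1 at each probe (0.91, 0.84 and 0.27). Against siNEG its first 2 probes were lower with #1 (-0.29 each) and the last did not pass (0.03). PI15 was higher with #3 than with #1 at 1 probe (0.60) and did not pass at the other (0.16). SQLE passed at neither probe (0.20 and 0.22).

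Of the 41 list members named at the mean of their probes, 24 differed between the siRNAs. They were picked as having moved furthest with #3, and the #3 arrays enter this test too, so the count is not a finding. The share over all genes was not counted, and over all probes it was 7.46%. RNF150 (0.67), ZNF704 (0.55), UGCG (0.50), LINC00997 (0.50), MRPS18A (0.49), SLC38A6 (0.44), PLAT (0.40), SLC38A11 (0.38), SRPRA (0.31), FOXF2 (0.27), ATP2B1-AS1 (0.24) and DCAF10 (0.22) were higher with #3. FABP7 (-0.73), ISG20 (-0.66), IGF2BP3 (-0.64), ZNF697 (-0.63), SAMD9 (-0.61), SLC25A39 (-0.56), TFPI2 (-0.37), MRPS17 (-0.37), HPRT1 (-0.31), CERT1 (-0.24), PLIN2 (-0.23) and B4GALT5 (-0.20) were lower with #3.

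In 12 of 166 groups of 4 arrays 1 array lay far from the other 3 by Dixon's test, which chance flags in about 1 of 20 groups. Among the siNEG arrays these were replicate 1 for INSIG1 (-0.71) and TFPI2 (0.38), replicate 2 for IGF2BP3 (-0.014), and replicate 4 for RAB2B (0.14), PLAT (-0.0075) and CERT1 (-0.14). Among the #3 arrays they were replicate 1 for NRP2 (-0.35), SEMA3C (-0.31) and SRPRA (0.31), replicate 2 for PLAT (0.22), and replicate 4 for TMEM64 (0.47) and HMGN1 (-0.49). Except for SEMA3C, the outlying array stayed on its own group's side of the other group.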

How the results depend on the processing

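The number of probes that passed for #3 against siNEG ran from 1090 to 1307 over the other models and scalings, and from 860 (without #3 replicate 4) to 1392 (without siNEG replicate 1) when 1 array was left out. With a difference of 1.5 fold the ranges were 108 to 125 and 117 to 152, for genes at the mean of their probes 745 to 946 and 635 to 956, and for #3 against #1 3643 to 3857 and 2901 to 3259. CITED1 ran from -0.79 to -0.72 over all alternatives and passed in each. Replicate numbers did not pair the arrays (correlations of deviations of 0.010 to 0.098 between siNEG and #3, the own number best in 1 of 4). With the replicate block 1205 probes and 842 genes passed, CITED1 stayed at -0.75, and no named gene lost its call.

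No named result reversed, and 84 of 99 passed under every alternative run. The calls of RNA28SN5 and of 1 PI15 probe were lost with robust variances, those of FXYD3 (1 probe), SEMA3C, IDH1 and SAMD9 in the fit to the 8 arrays alone, and that of CERT1 with the most variable probe per gene (adjusted p = 0.125). Leaving out 1 array ended the calls of NR4A2 and SAMD9 as given above. It also ended those of FXYD3 at 1 of its 3 probes (siNEG replicates 1 to 3, #3 replicates 1 and 4, adjusted p up to 0.155), PI15 at 1 of its probes (siNEG replicates 3 and 4, #3 replicate 4), HNRNPH3 at 1 probe (siNEG replicate 2, 0.0513) and SEMA3C (siNEG replicates 3 and 4, #3 replicates 2 to 4, up to 0.0907). The same held for SUZ12 (siNEG replicates 2 and 3, #3 replicates 1 to 3, up to 0.105), IDH1 (siNEG replicates 1 to 3, #3 replicates 1, 3 and 4, up to 0.0859), TRIM63 (siNEG replicates 3 and 4, #3 replicates 1 and 3, up to 0.0778) and ZNF697 (siNEG replicates 2 and 3, #3 replicates 3 and 4, up to 0.0855). KDM3A (siNEG replicate 3, #3 replicate 1), SNORA61 (siNEG replicate 3, #3 replicates 3 and 4) and LINC00997 (siNEG replicates 2 and 3, #3 replicate 1) were lost at adjusted p up to 0.0523, 0.0572 and 0.0636. Of 350 list medians under these alternatives 19 moved by more than the SD of the list's mean over the arrays. The number of arrays limits the precision, and signal over background could not be judged from centred values.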

Other observations

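Of the 53 lists with under 4 genes that passed, 17 held calls upward only, 10 downward only, 17 in both directions and 9 none. Of 48 ADAM and ADAMTS proteases, 48 SNARE proteins, 37 protein tyrosine phosphatases and 70 replication-dependent histones 3 each rose and 0 fell. Of 38 genes of serine, glycine and one-carbon metabolism 0 rose and 3 fell. No gene passed in 9 lists, among them ribosome biogenesis (78 genes), keratins and other intermediate filaments (65), ABC transporters (42) and the TNF superfamily (47). These counts rest on 0 to 3 genes a list and are values only.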
